A study of Mus musculus with 10 samples.

Results

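The genes described here are the processed pseudogenes that were counted in neuronal nuclei of the mouse brain. A processed pseudogene, or retrocopy, is a copy of a spliced mRNA that was reverse transcribed and inserted elsewhere in the genome, so that it lacks the introns and the promoter of its parent gene. Members were chosen by their level, as the genes with the GENCODE M21 biotype of a processed or transcribed processed pseudogene on an autosome of GRCm38 whose mean over the 10 libraries was at least 5 CPM (counts scaled to the total of a library). Of the 54532 genes in the count tables, 9786 have such a biotype. *Gm19026* and genes at the protocadherin cluster on chromosome 18 were left out, in all 5 autosomal genes of these biotypes. This left 8737 on autosomes, of which 5148 had no count in any library and 69 were members. Levels are therefore given as a description without a test. The members comprised 52 genes annotated as processed and 17 as transcribed processed pseudogenes.

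HUSH is a complex of MPP8 (the product of *Mphosph8*), TASOR and periphilin that silences chromatin, and MORC2A is an ATPase that it recruits. HUSH is known to repress young retrotransposons and intronless sequences integrated into the genome, while spliced genes escape it. Retrocopies are intronless sequences that the genome itself has acquired, and the comparison of knockout and control neurons shows how those with counts behaved without either protein.

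RNA of NeuN+ nuclei, sorted from brains of adult C57BL/6J mice, was sequenced in 10 libraries. Controls were *Mphosph8*fl/fl mice (replicates 1 to 3) and *Morc2a*fl/fl mice (replicates 4 and 5), both without *Nestin*-Cre. The 3 *Mphosph8*Δ/Δn libraries were from *Mphosph8*fl/fl and the 2 *Morc2a*Δ/Δn libraries from *Morc2a*fl/fl mice with *Nestin*-Cre, which recombines the floxed exon 4 in neuronal progenitors and in the neurons and glia that descend from them. All mice, controls included, carried floxed alleles. Library totals were between 6686038 and 10764555 counts, and a count of 0 allows up to between 0.279 and 0.449 CPM (3 counts). This limit covers counting error only.

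Counts over the whole gene are a weak check for loss of the floxed exon alone. It makes up 2.7% of the exonic length of *Mphosph8* and 1.07% of that of *Morc2a*. The paper also describes the resulting mRNA as out of frame and subject to nonsense-mediated decay, which would lower these counts. *Mphosph8* was at 32.2, 33.5, 37.2, 49.0 and 41.6 CPM in controls 1 to 5, at 37.2, 36.0 and 18.8 CPM in the *Mphosph8*Δ/Δn and at 41.4 and 37.9 CPM in the *Morc2a*Δ/Δn libraries (log2 fold change of *Mphosph8* loss -0.34 ± 0.23 SE, adjusted p = 0.967, edgeR's quasi-likelihood test). *Morc2a* was at 163, 139, 138, 122 and 140 CPM in the controls, at 185, 200 and 154 CPM in the *Mphosph8*Δ/Δn and at 215 and 223 CPM in the *Morc2a*Δ/Δn libraries (log2 fold change of *Morc2a* loss 0.64 ± 0.14, adjusted p = 0.0916). The *Mphosph8* levels of the groups overlapped, and *Morc2a* lay above every control in the libraries labelled as its knockout, so these counts do not show the deletions and the genotypes are given as labelled. The study reports the loss of both genes as verified by quantitative PCR and immunoblot, which were not analysed here. None of the other 7 genes listed for the complex and its partners, *Fam208a* (TASOR), *Pphln1*, *Morc2b*, *Setdb1*, *Atf7ip*, *Trim28* and *Fam208b*, was called in either knockout.

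Neuronal markers dominated the libraries. The summed level of 8 neuronal markers was 5222 ± 468 CPM in the controls (SD, n = 5), 5055 ± 159 in *Mphosph8*Δ/Δn (n = 3) and 4187 ± 448 in *Morc2a*Δ/Δn (n = 2), led by *Snap25*, and *Rbfox3*, which encodes NeuN, was between 150 and 304 CPM. The 5 oligodendrocyte markers, led by *Mbp*, summed to 726 ± 68.7, 787 ± 135 and 543 ± 79.1 CPM, the 5 astrocyte markers, led by *Slc1a3*, to 115 ± 16.2, 122 ± 32.5 and 107 ± 3.79 CPM, and the 5 microglia markers, led by *Csf1r*, to 26.8 ± 6.10, 19.97 ± 1.96 and 20.7 ± 4.00 CPM in the same order. The 2 precursor markers (*Pdgfra*, *Cspg4*) summed to 6.86 ± 0.899, 8.10 ± 3.12 and 5.86 ± 1.36 CPM, and the 4 endothelial markers to 2.09 ± 1.11, 3.43 ± 1.61 and 1.30 ± 1.23 CPM. No marker was at 0 in all libraries, and the part of these cells in the levels of the retrocopies was not tested. In bulk RNA, fewer cells that use a gene and less RNA per cell cannot be told apart.

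The first sequences shown are those of the most abundant member and of the more abundant of the 2 members that were above the controls in all knockout libraries, each beside the coding sequence of the gene it was copied from. *Gm17922* is a copy of *Npm1*, the gene of the nucleolar chaperone nucleophosmin, and lies in *Pcdh9*. The stretch (GRCm38 chr14:93202572-93202721, minus strand) matches bases 199 to 348 of the *Npm1* coding sequence at 136 of 150 positions. *Rps4l* is a copy of *Rps4x*, which encodes a protein of the small ribosomal subunit, and the stretch (chr6:148354710-148354859, plus strand) matches the first 150 coding bases at 119 positions. Sequences are from the GENCODE M21 transcripts, 5′ to 3′, and capitals mark the bases that differ between copy and parent.
Gm17922: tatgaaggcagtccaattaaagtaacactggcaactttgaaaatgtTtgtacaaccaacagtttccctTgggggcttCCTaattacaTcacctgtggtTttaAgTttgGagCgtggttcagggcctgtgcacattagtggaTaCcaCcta
Npm1: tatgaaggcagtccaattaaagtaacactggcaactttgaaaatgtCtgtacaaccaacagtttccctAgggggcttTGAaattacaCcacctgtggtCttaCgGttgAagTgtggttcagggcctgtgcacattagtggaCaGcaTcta
Rps4l: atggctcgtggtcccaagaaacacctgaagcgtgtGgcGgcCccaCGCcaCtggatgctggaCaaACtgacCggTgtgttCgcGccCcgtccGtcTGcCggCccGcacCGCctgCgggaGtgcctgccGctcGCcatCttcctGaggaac
Rps4x: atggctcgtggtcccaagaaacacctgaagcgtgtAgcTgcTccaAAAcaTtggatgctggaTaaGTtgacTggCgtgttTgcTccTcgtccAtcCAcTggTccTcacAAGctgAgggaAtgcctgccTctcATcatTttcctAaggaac

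In *Rps4l* the 31 differences were spread over the stretch, and its start codon and the bases just after it were the same in both genes. The next stretches show a diverged copy that went below the controls in *Mphosph8*Δ/Δn, *Gm8407*, a copy of the ribosomal protein gene *Rps15* (chr1:191001597-191001746, minus strand, 126 of 150 positions), and 1 of the copies most like its parent. *Gm20386*, a short copy of a part of *Mical3*, an actin-oxidizing enzyme gene (chr6:110738350-110738478, plus strand), matched at 127 of 129 positions.
Gm8407: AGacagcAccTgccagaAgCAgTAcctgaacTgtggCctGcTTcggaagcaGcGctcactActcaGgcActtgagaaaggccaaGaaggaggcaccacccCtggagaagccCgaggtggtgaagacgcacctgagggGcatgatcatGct
Rps15: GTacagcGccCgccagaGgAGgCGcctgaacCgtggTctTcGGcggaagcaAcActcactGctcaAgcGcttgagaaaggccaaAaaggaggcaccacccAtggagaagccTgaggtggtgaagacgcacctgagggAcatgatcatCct
Gm20386: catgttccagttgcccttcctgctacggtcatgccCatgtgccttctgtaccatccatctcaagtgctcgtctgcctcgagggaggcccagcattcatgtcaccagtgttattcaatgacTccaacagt
Mical3: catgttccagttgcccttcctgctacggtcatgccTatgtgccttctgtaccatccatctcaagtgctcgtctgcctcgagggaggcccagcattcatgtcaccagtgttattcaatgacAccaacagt

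A parent was assigned to 53 members by the best match on the same strand among the spliced transcripts of protein-coding genes, at 70% identity or more over at least 50% of the copy. The identity was between 71.2% and 99.0% with a median of 89.8%, and 48 of the 53 copies matched over more than 95% of their length. All 53 parent transcripts had between 3 and 18 exons, whereas 63 of the 69 members are annotated as a single block. The largest group, 18 members, were copies of ribosomal protein genes. The others included 4 copies of energy metabolism genes (*Gapdh*, *Atp5g1*, *Atp5j2*), 4 of genes for RNA-binding proteins (*Pabpc1*, *Pabpc4*, *Snrpc*, *Snrpd3*), 3 of genes for nuclear proteins (*Npm1*, *Hmgb1*) and 1 of the proteasome gene *Psma6*. For 6 parents, *Cycs*, *Gapdh*, *Hmgb1*, *Rpl17*, *Rpl7a* and *Rps2*, the members held 2 copies each.

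For the remaining 16 members the sequence did not show a copy by these rules. *Gm47098*, in *Pcdh15*, had its best match on the opposite strand, and 15 had no parent by the rule. These 15 were long, with a median exonic length of 2937 bases against 597 bases for the members with a parent, and 14 of the 15 have the transcribed biotype. *A930017M01Rik*, *B230303A05Rik*, *2810025M15Rik*, *6330549D23Rik* and *3000002C10Rik* are annotated with several exon blocks, as is *Gm12846*, a copy of *Odc1* with a parent by the rule. Exonic bases were shared with another gene in 6 of the 15, up to 17.3% of the length in *2810025M15Rik*, which runs against *Rasal2*.

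Most copies no longer hold the reading frame of their parent. The longest frame from a start to a stop codon was below 50% of the codons of the parent in 39 of the 53 members, with a median of 29.9%. It reached at least 90% in 4. *Rps4l* holds 262 codons against 263 in *Rps4x*, *Gm7618* holds 56 codons as *Rps29* does, *Gm8738* 101 against 108 in *Cisd1*, which encodes a mitochondrial iron-sulfur protein, and *Gm11839* 606 against 660 in *Pabpc4*, which encodes a poly(A)-binding protein. These lengths come from the sequence alone and say nothing of translation.

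Short reads can place a copy and its parent together. Cut into windows of 50 bases, the length of the reads, 24 of the 69 members shared no window with another annotated transcript, the median share was 2.2%, and in 2 members, *Gm12366* (a copy of *Rps2*, 76.3%) and *Gm11839* (71.3%), it was over 50%. *Gm7618* shared 10.7% of its windows at 98.2% identity, and *Gm20386* kept the fewest windows of its own, 48. Both *Rps4l* (14.9%, none of it with *Rps4x*) and *Gm8407* (none) are mostly distinct. Only annotated transcripts were searched, and how reads with several positions were counted is not given in the sources used here, so levels of the members with many shared windows are uncertain.

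**Figure D1:**
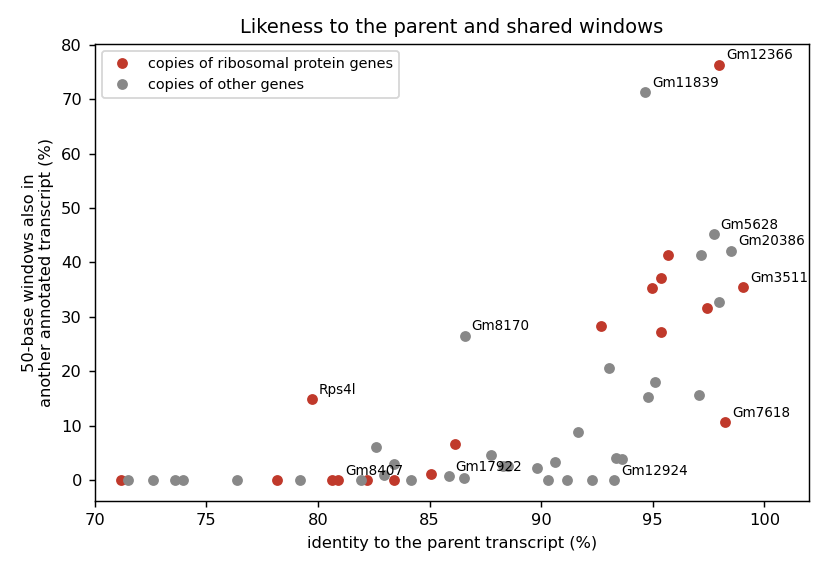
Share of 50-base windows that also occur in another annotated transcript (vertical axis, percent) against identity to the parent transcript (horizontal axis, percent) for the 53 members with a parent on the same strand, with copies of ribosomal protein genes in red. Below 80% identity *Rps4l* alone shares windows, at 14.9%, and *Gm12366* and *Gm11839* stand highest.

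Retrocopies took a small and even share of the RNA. The 69 members held between 0.113% and 0.143% of all counts of a library and between 53.8% and 62.4% of the counts of all autosomal retrocopies considered. Their mean levels ran from 5.05 to 142 CPM with a median of 10.8 CPM, 19 were above 20 CPM, and the 10 most abundant held 44.6% of the counts of the group. Just inside the threshold were *Gm47860* (5.05 CPM), *Gm7511* (5.12 CPM) and *Gm5628* (5.20 CPM), and just outside it *AC098880.2* (4.94 CPM), *Gm15542* (4.92 CPM) and *Gpx2-ps1* (4.91 CPM). All but *Gm47860* had at least 10 counts in every library. Some members near the threshold reached it through 1 group. Without the *Morc2a*Δ/Δn libraries *Gm5628* (4.08 CPM) and *Gm7511* (4.96 CPM) would be below it, without the *Mphosph8*Δ/Δn libraries *CT010445.2*, *Gm42774* and *Gm47860*, and without the controls *Gm7805*, *Gm29844*, *Gm7511* and *Gm47860*.

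*Gm17922* (chr14:93202100-93202901), the copy of *Npm1*, was the most abundant. It was at 159, 121, 148, 101.7 and 174 CPM in the controls, at 154, 124 and 136 CPM in *Mphosph8*Δ/Δn and at 154 and 148 CPM in *Morc2a*Δ/Δn. The controls spanned all knockout libraries. Per kb of exonic length, it stood at 177 ± 26.5 CPM (SD, n = 10), against 16.7 CPM per kb for *Npm1* and 12.2 CPM per kb for *Pcdh9*, the adhesion gene it lies in on the same strand.

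Per kb, *Gm8738* in *Nsf*, a vesicle fusion gene (176 ± 34.0 CPM per kb), and *Gm4660* in *Epha6*, an ephrin receptor gene (167 ± 33.0), were level with *Gm17922* within their spread over the libraries. *Gm4660* is a copy of *Atp5g1*, a subunit gene of the mitochondrial ATP synthase. Next came *Gm20386* in the glutamate receptor gene *Grm7* (133 ± 24.8), *Gm47098* (121 ± 19.2) and *Gm13868*, a copy of *Rpl37* in *Trim44* (112 ± 34.1), which also overlapped in their spread. *Gm19932* and *Gm12276*, both copies of *Cycs*, the gene of cytochrome c, followed at 79.0 ± 14.4 and 63.6 ± 16.8 CPM per kb, with *Gm3511*, a copy of *Rps28*, at 70.4 ± 13.5 and *Gm17212*, a copy of *Rpl17*, at 68.5 ± 17.3 between them. The median of the members was 14.4 CPM per kb, and 54 of the 69 lay above the median of 6.33 CPM per kb of the 14553 protein-coding genes tested, which the choice by level favours.

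**Figure D2:**
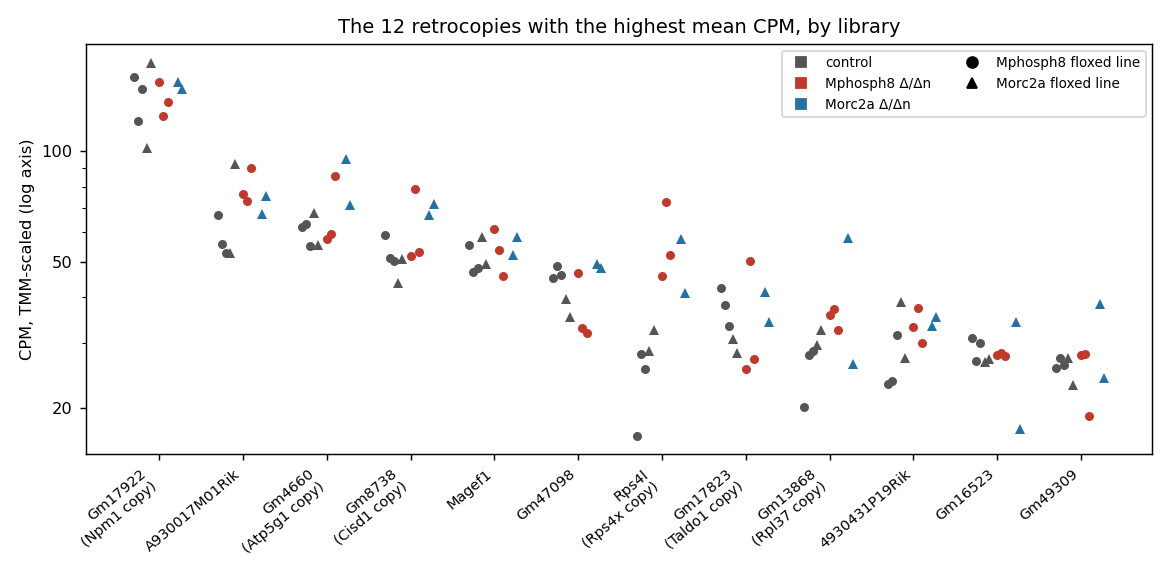
CPM (log axis) of the 12 members with the highest mean CPM, 1 point per library, coloured by group, with circles for the *Mphosph8* and triangles for the *Morc2a* floxed line. *Gm17922* stands above the others with 101.7 to 174 CPM, and *Rps4l* is the member of the 12 whose knockout libraries, 41.1 to 72.5 CPM, all lie above its controls, 16.8 to 32.7 CPM.

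Of the 69 members, 47 (68.1%) lie within another gene, in every case a protein-coding one, 30 on its strand and 17 on the opposite strand. Among the 405 other autosomal retrocopies tested, 52.1% lie within another gene, and among all 8668 others 29.8%. The level per kb of the copy was above that of the exons of the gene around it in 34 of the 47 members, in 20 of the 30 on the same strand and 14 of the 17 on the opposite strand, with a median ratio of 2.22. The choice by level favours this, most for short copies, since the surrounding genes had to meet no threshold. The ratio was highest for *Gm42774*, a copy of the spliceosome gene *Snrpd3* in *Naaladl2* (18.7 against 0.0699 CPM per kb), and lowest for *Gm16580*, a copy of *Pabpc1* in *Luc7l* (5.14 against 42.0 CPM per kb). Whether the counting used the strand is not given in the sources used here, and reads of a copy cannot be told apart from reads of the intron around it.

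Many copies were counted above their parents. Per kb, 33 of the 51 copies whose parent had counts stood above the parent gene, and the other 2 parents, *3830403N18Rik* and *Nr2e3*, had no count in any library. The choice of the copies by level favours this, since the parents had to meet no threshold. Windows that the parents share with other genes were not searched. How reads with several positions were counted is not given, so the levels of the parents are uncertain too. *Gm8407* stood at 61.6 ± 19.8 against 144 CPM per kb for *Rps15*, *Rps4l* at 42.5 ± 18.1 against 10.0 for *Rps4x*, and *Gm19040*, a copy of the microtubule gene *Camsap1* in *Atg7*, at 1.49 ± 0.738 against 18.4. Of the 6 pairs of copies of 1 parent, 3 differed in level by more than their spread over the libraries and 3 did not. The *Rpl17* copies *Gm17212* and *Gm29844* stood at 68.5 ± 17.3 and 10.8 ± 6.06 CPM per kb, and the *Hmgb1* copies *Gm7890* and *Gm5176* at 42.0 ± 9.03 and 6.63 ± 2.43, and the *Rpl7a* copies *Gm32842* and *Gm15515* at 33.3 ± 6.36 and 11.6 ± 4.67. The *Gapdh* copies *Gm8170* and *Gm26937* overlapped within their spread at 19.1 ± 5.13 and 16.6 ± 4.35 CPM per kb, as did the *Rps2* copies *Gm12366* and *Gm17971* at 9.48 ± 3.12 and 6.79 ± 4.24 and the *Cycs* copies given above.

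**Figure D3:**
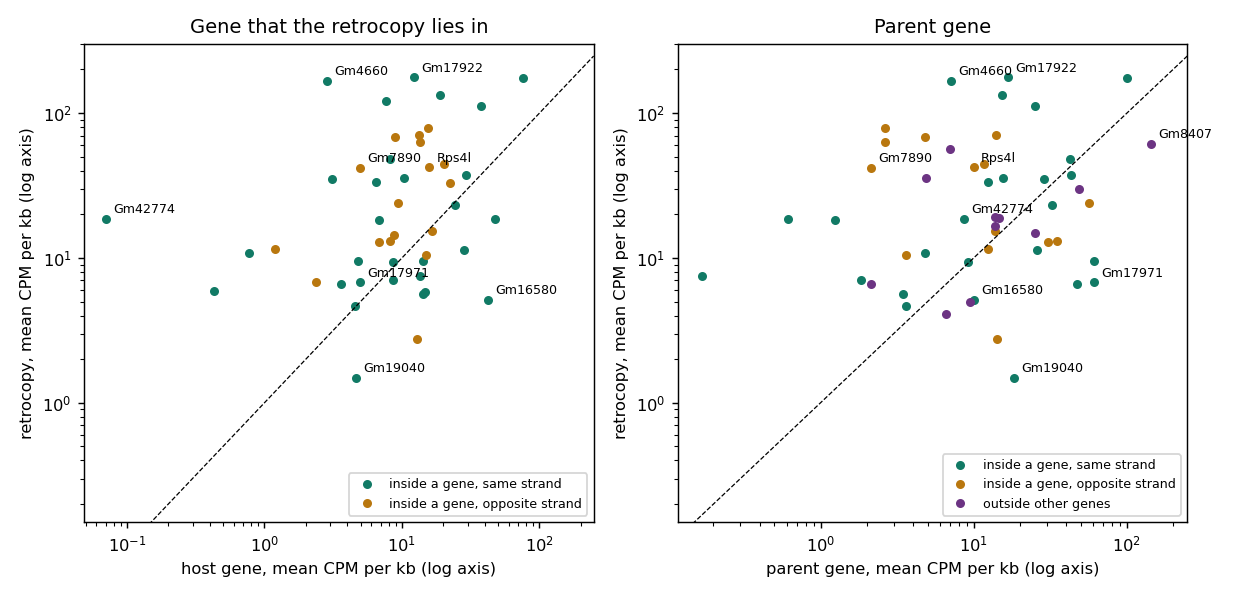
Mean CPM per kb over the 10 libraries of each retrocopy (vertical, log axis) against the gene it lies in (left, 47 members) and against its parent gene (right, 51 members whose parent had counts), with a dashed line of equal level and colours for the position. In the left panel 34 of 47 points lie above the line, which the choice by level favours, and *Gm42774* lies farthest from it.

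The spread among the controls was wide for the lower members. The coefficient of variation over the 5 controls had a median of 26.1%, of 16.7% for the 19 members above 20 CPM and of 30.8% for the other members, and reached 78.7% in *Gm17971*, the second copy of *Rps2*. The controls of the floxed lines also differed. Of the members, 23 were lower in both *Morc2a*fl/fl controls than in all 3 *Mphosph8*fl/fl controls (15.1% of all genes tested were) and 5 were higher (14.1%). None was called between the lines, where 0.129% of the genes tested were, 0.0538% higher and 0.0754% lower in the *Morc2a*fl/fl controls. At an unadjusted p below 0.05, 2 members were higher and 9 lower, beside 4.26% and 4.95% of all genes (9.21% in both directions). Line and preparation of these controls cannot be told apart.

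The loss of *Mphosph8* was compared with all 5 controls across 18573 genes. Calls needed more than a 2-fold change and an adjusted p below 0.05 (edgeR, Benjamini-Hochberg). All 69 members passed the filter on low counts. None was called, against 0.0969% of all genes tested (18 genes, all higher). Without adjustment, 3 members were higher and 1 was lower at p below 0.05, where 2.58% and 3.09% of all genes were (5.67% in both directions). Of the members, 40 were higher and 29 lower with a median log2 fold change of 0.05, while the median of all genes tested was -0.01, and 57 of the 69 had a log2 fold change within 0.5 of 0. Of all genes tested, 48.7% were higher and 76.3% lay within 0.5. Without the 3 members that reached 5 CPM through the *Mphosph8*Δ/Δn libraries, 37 were higher and 29 lower, with a median of 0.04. The sign of the members' median turned with the 3 controls of the same floxed line (-0.0252) and without *Mphosph8*Δ/Δn replicate 1 (-0.00622). A block by replicate number, which did not pair the libraries and gives controls 4 and 5 no weight, turned it too.

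The loss of *Morc2a* was set against the same controls. No member was called, where 0.0592% of the genes tested were (11 genes, 0.0377% higher and 0.0215% lower), and 6 members were higher and none lower at an unadjusted p below 0.05, beside 4.32% and 6.4% of all genes (10.7% in both directions). Of the 6, *Gm5628* is a member through the *Morc2a*Δ/Δn libraries, and without the 2 such members the count was 5, with 39 members higher and 28 lower. Of the members, 41 were higher and 28 lower, with a median log2 fold change of 0.07 against -0.01 over all genes, of which 48.7% were higher. With the 2 controls of the same floxed line the median was 0.22, still with no member called. Without *Morc2a*Δ/Δn replicate 1 it was -0.0556, and a block by replicate number turned its sign too. This block gives controls 4 and 5, the only *Morc2a*fl/fl controls, no weight, since no knockout library has these numbers. With DESeq2 in place of edgeR, 1 member was called in *Mphosph8*Δ/Δn (0.237% of the genes with an adjusted p) and none in *Morc2a*Δ/Δn (0.496%), where 31 of the 69 members kept an adjusted p. By limma-voom 1 member was called in *Mphosph8*Δ/Δn (0.102% of the genes tested) and none in *Morc2a*Δ/Δn (0.0861%). The comparisons share their controls and are given side by side.

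**Figure D4:**
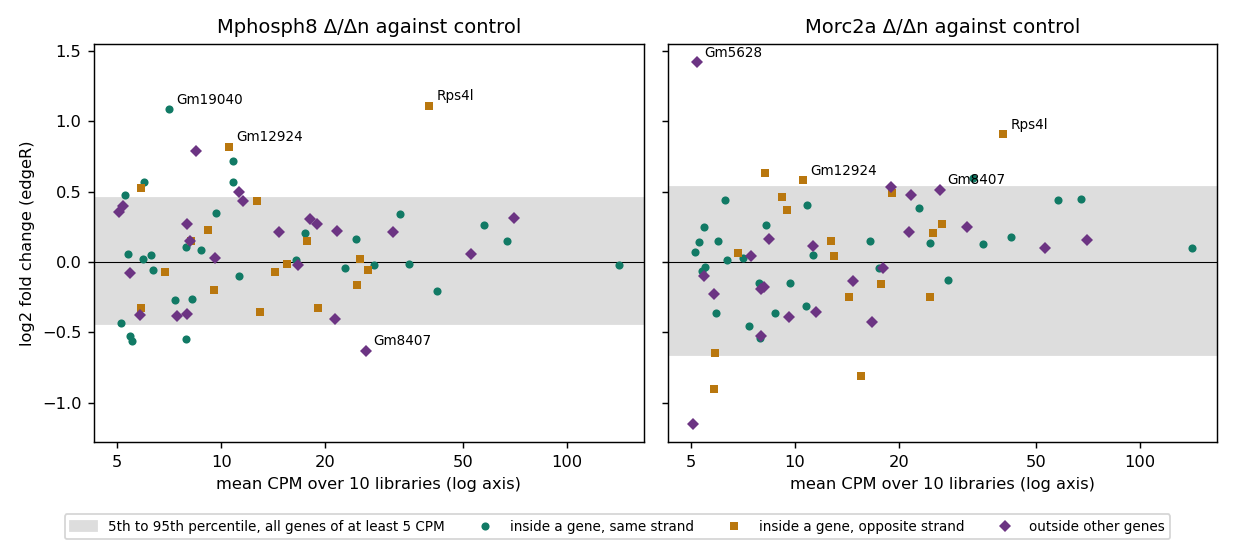
log2 fold change by edgeR (vertical) against mean CPM (horizontal, log axis) of the 69 members in each knockout, coloured by position, with the grey band from the 5th to the 95th percentile of the 12502 genes tested with at least 5 CPM. In *Mphosph8*Δ/Δn 10 members lie above and 4 below the band, in *Morc2a*Δ/Δn 6 above and 3 below (8 and 5 above without the members that reached 5 CPM through that knockout), and *Rps4l* is above the band in both.

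*Rps4l* (ENSMUSG00000063171, chr6:148354656-148355598, plus strand), the copy of *Rps4x* with the nearly whole frame, had the largest log2 fold change of the members in *Mphosph8*Δ/Δn. It lies within *Tmtc1* on the other strand, which encodes a mannosyltransferase of the endoplasmic reticulum. It was at 16.8, 28.1, 25.6, 28.5 and 32.7 CPM in controls 1 to 5, at 45.6, 72.5 and 52.3 CPM in *Mphosph8*Δ/Δn and at 57.6 and 41.1 CPM in *Morc2a*Δ/Δn. All 5 knockout libraries were above all 5 controls, which held for 2 of the 69 members and for 0.63% of the genes tested.

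The log2 fold change of *Rps4l* was 1.11 ± 0.22 (SE) in *Mphosph8*Δ/Δn with an adjusted p of 0.0723, the smallest of the members but not past the threshold, and 0.91 ± 0.25 in *Morc2a*Δ/Δn (adjusted p = 0.181, edgeR). In *Mphosph8*Δ/Δn it was past the threshold by DESeq2 (adjusted p = 0.00176), by limma-voom (0.0440) and by edgeR over genes that reached 10 counts in every library (0.0236), and leaving out single libraries moved the adjusted p between 0.0625 and 0.659, the highest without *Mphosph8*Δ/Δn replicate 2. In *Morc2a*Δ/Δn DESeq2 gave an adjusted p of 0.0338 at a change below 2-fold, and leaving out *Morc2a*Δ/Δn replicate 1 moved the edgeR value to 0.65 (adjusted p = 0.546). *Tmtc1* around it changed by 0.04 and 0.12 on the log2 scale and its parent *Rps4x* by -0.36 and 0.14, none of them called. By line, *Rps4l* averaged 23.5 CPM in the *Mphosph8*fl/fl and 30.6 CPM in the *Morc2a*fl/fl controls. Same-line controls therefore raise its change in *Mphosph8*Δ/Δn and lower that in *Morc2a*Δ/Δn.

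*Gm12924* (chr4:123435617-123435934), a copy of *3830403N18Rik* on the opposite strand of the cytoskeletal linker gene *Macf1*, was the other member above all controls in all knockout libraries. It was at 7.90, 8.39, 8.61, 6.73 and 8.02 CPM in the controls, at 14.2, 13.6 and 14.2 CPM in *Mphosph8*Δ/Δn and at 14.2 and 9.61 CPM in *Morc2a*Δ/Δn. Neither knockout group overlapped with the controls, to which *Morc2a*Δ/Δn replicate 2 was nearest, and the knockout groups overlapped with each other. The log2 fold changes were 0.82 ± 0.27 and 0.58 ± 0.31, neither past the threshold (adjusted p = 0.746 and 0.522, edgeR). Without *Morc2a*Δ/Δn replicate 1 the latter was 0.28. Its parent had no count in any library.

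*Gm8407* (chr1:191001425-191001851), the copy of *Rps15*, lies outside other genes, 3996 bases downstream of *Flvcr1*, a heme exporter gene of the same strand. It was at 24.8, 26.6, 26.6, 25.6 and 30.7 CPM in the controls, at 21.3, 15.4 and 15.4 CPM in *Mphosph8*Δ/Δn and at 32.6 and 44.1 CPM in *Morc2a*Δ/Δn. The knockouts thus lay on opposite sides of the controls, without overlap. The log2 fold changes were -0.63 ± 0.21 and 0.51 ± 0.23 (adjusted p = 0.764 and 0.429, edgeR), and the difference between the effects, each against the controls of its own line, was -1.03 with an adjusted p of 0.507. Without *Morc2a*Δ/Δn replicate 2 the effect of *Morc2a* loss was 0.27. Its parent *Rps15* changed by -0.11 and -0.27.

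Further members lay beyond the controls in 1 knockout. In *Mphosph8*Δ/Δn 4 members were above every control (2.31% of the genes tested were) and 1 below (2.26%). *Gm19040*, the copy of *Camsap1*, was at 11.4, 10.5 and 11.6 CPM in *Mphosph8*Δ/Δn and between 2.08 and 7.58 CPM in the controls (log2 fold change 1.09 ± 0.44, adjusted p = 0.810), and *Gm13541*, a copy of the ubiquitin fusion gene *Rps27a* in *Cacnb4*, at 15.6, 14.4 and 15.5 CPM against 8.29 to 14.3 CPM (0.43 ± 0.27, adjusted p = 0.949). *Gm19040* is the longest of the members with a parent, with 4726 bases, and was at 2.56 and 8.16 CPM in *Morc2a*Δ/Δn.

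In *Morc2a*Δ/Δn 8 members were above every control (7.59% of the genes tested) and none was below (7.80%). The 8 include *Gm5628*, and 7 remained among the members that reached 5 CPM without these libraries. *Gm5628* (chr13:17949908-17950956), a copy of *Gpank1* at 97.7% identity, had the largest fold change, but its level in these libraries made it a member, so its values are a description. It went from 3.51, 3.02, 3.18, 5.05 and 3.42 CPM in the controls to 6.50 and 13.0 CPM, with 4.45, 5.90 and 4.04 CPM in *Mphosph8*Δ/Δn. The 2 libraries differed from each other by more than the controls did. The log2 fold change was 1.42, and 0.83 without *Morc2a*Δ/Δn replicate 2, and 45.2% of its windows are shared with *Gpank1*, whose own change was -0.03. The abundant copies *Gm4660* (94.9 and 71.3 CPM against 55.2 to 68.0 CPM in the controls, 0.45 ± 0.19, adjusted p = 0.391) and *Gm8738* (66.9 and 71.7 against 43.7 to 59.0 CPM, 0.44 ± 0.19, adjusted p = 0.415) were among the 8, as were *Gm12276* (25.2 and 27.5 against 14.5 to 22.7 CPM, 0.49 ± 0.26, adjusted p = 0.539) and *Gm13787*, a copy of *Ier3ip1* (8.09 and 7.64 against 5.34 to 6.77 CPM, 0.44 ± 0.39, adjusted p = 0.749).

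**Figure D5:**
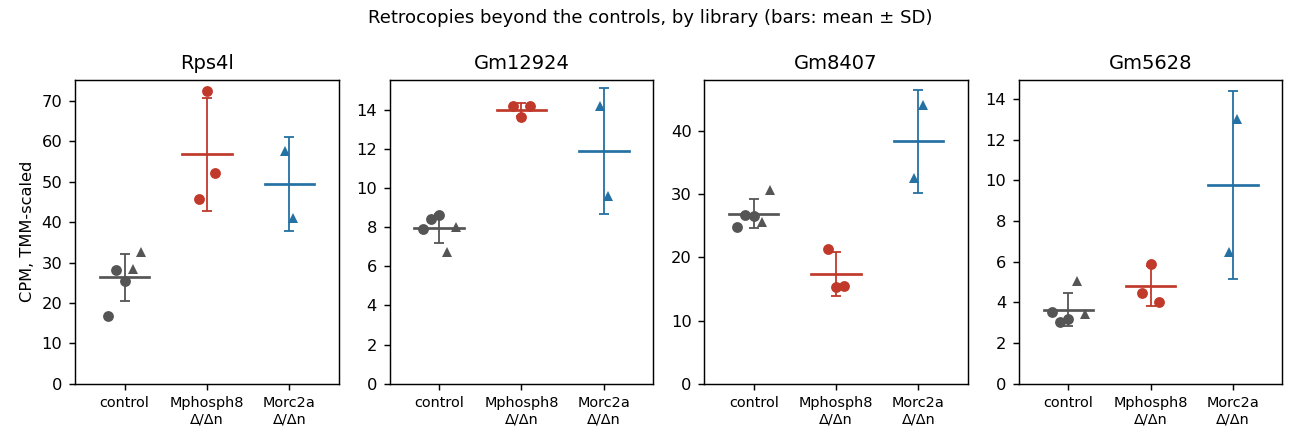
CPM of 4 retrocopies by group, 1 point per library (circles for the *Mphosph8*, triangles for the *Morc2a* floxed line), with the mean as a line and the SD as bars. *Rps4l* and *Gm12924* are above all controls in all 5 knockout libraries, *Gm8407* is below them in *Mphosph8*Δ/Δn and above them in *Morc2a*Δ/Δn, and *Gm5628* is above them in *Morc2a*Δ/Δn, where its libraries are far apart and made it a member.

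The other members at either end of the fold changes overlapped with the controls. In *Mphosph8*Δ/Δn, *Gm3052* (0.79 ± 0.40) and *Gm18990*, a copy of the proton pump gene *Atp6v1a* (0.72 ± 0.35), completed the 5 largest positive values, and *Gm29844* (-0.56 ± 0.52), *Gm17195* (-0.55 ± 0.36), *Gm17971* (-0.53 ± 0.53) and *Gm7511*, a copy of the RNA polymerase gene *Polr2h* (-0.43 ± 0.54), followed *Gm8407* at the negative end. In *Morc2a*Δ/Δn, *Gm6374*, a copy of *Mrrf* (0.63 ± 0.46), and *Gm13868* (0.60 ± 0.26) were among the 5 largest positive values. The most negative values were those of *Gm47860* (-1.15 ± 1.00), *CT010445.2*, a copy of *Fbxo34* (-0.91 ± 0.65), *Ccnb2-ps* (-0.81 ± 0.43), *Gm7805*, a copy of *Mrpl20* (-0.65 ± 0.51), and *Gm17076*, a copy of *Rrp8* (-0.54 ± 0.49). All of these are log2 fold changes by edgeR ± SE, and the smallest adjusted p among them was 0.424, for *Gm13868*. *Gm47860* was at 0 CPM in *Morc2a*Δ/Δn replicate 2 and at 4.69 CPM in replicate 1, and between 0.792 and 10.9 CPM in the controls. *Gm47860*, *Gm7805*, *Gm29844* and *Gm7511* reached 5 CPM through the controls, so their negative values are a description. Several of these values rest on 1 library. In *Mphosph8*Δ/Δn the change of *Gm7511* was -0.0169 without replicate 3, that of *Gm17195* -0.34 without replicate 2, and, leaving out single controls, that of *Gm29844* -0.13 without control 5 (0.049 with same-line controls) and that of *Gm17971* 0.0808 without control 2. In *Morc2a*Δ/Δn, leaving out replicate 1 gave -0.0731 for *Gm13868*, 0.31 for *Gm6374* and -0.50 for *CT010445.2*, and leaving out replicate 2 gave -0.16 for *Gm47860*. Without replicate 1 the library of *Gm47860* that remained had no count, so no fold change is given. With the controls of its own floxed line *Gm47860* turned to 0.59, and it averaged 7.62 CPM in the *Mphosph8*fl/fl and 1.58 CPM in the *Morc2a*fl/fl controls. Without single controls, *Gm17076* was at -0.0915 (control 2) and *Gm7805* at -0.33 (control 5). Other libraries left out moved values away from 0, in *Mphosph8*Δ/Δn to -1.11 for *Gm7511*, -0.98 for *Gm17195* and -1.07 for *Gm29844*. In *Morc2a*Δ/Δn they reached -1.465 for *CT010445.2* and 1.05 for *Gm13868*.

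By origin, the copies of ribosomal protein genes were higher in 7 and lower in 11 of 18 members in *Mphosph8*Δ/Δn (median log2 fold change -0.07) and higher in 12 and lower in 6 in *Morc2a*Δ/Δn (0.14). Their summed level was 264 ± 20.3 CPM in the controls (SD, n = 5), 287 ± 20.9 in *Mphosph8*Δ/Δn (n = 3) and 325 ± 69.7 in *Morc2a*Δ/Δn (n = 2). Without *Rps4l*, the sums of the other 17 were 238 ± 19.4, 231 ± 6.90 and 275 ± 58.0 CPM. The 15 members without a parent were higher in 10 and 9 members (medians 0.21 and 0.10). No group held a called member.

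By position, the 22 members outside other genes had median log2 fold changes of 0.21 and 0.00, those inside a gene on the same strand 0.04 and 0.09, and those on the opposite strand -0.02 and 0.15, for the loss of *Mphosph8* and of *Morc2a*. None of the 47 surrounding genes had an adjusted p below 0.05 in either knockout. Across members, the changes of copy and surrounding gene had Pearson's r of 0.01 and -0.05 (47 pairs), and those of copy and parent 0.04 and 0.01 (51 pairs). These pairs share their libraries, some share a parent, and genes are not independent replicates.

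The summed level of all members was 1317, 1249, 1224, 1123 and 1188 CPM in controls 1 to 5, 1371, 1326 and 1259 CPM in *Mphosph8*Δ/Δn and 1464 and 1273 CPM in *Morc2a*Δ/Δn. The groups overlapped, with the highest sum in *Morc2a*Δ/Δn replicate 1 and the lowest in a *Morc2a*fl/fl control. Both *Morc2a*fl/fl controls lay below all 3 *Mphosph8*fl/fl controls. Same-line controls therefore lower the log2 difference given next for *Mphosph8* loss and raise that for *Morc2a* loss. The means were 1220 ± 72.1 (SD, n = 5), 1319 ± 56.7 (n = 3) and 1368 ± 135 CPM (n = 2), a log2 difference from the controls of 0.11 and 0.17 (0.0611 for *Morc2a*Δ/Δn without its replicate 1 and 0.26 without its replicate 2). The difference between the effects of the knockouts, in a model with each line's own controls, was called for no gene of those tested (0%), and 7 members had an unadjusted p below 0.05, 1 with a higher and 6 with a lower effect of *Mphosph8* loss than of *Morc2a* loss (3.91% and 4.03% of the genes tested, 7.95% in both directions).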

How the data were processed

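Poly(A) RNA of sorted NeuN+ nuclei from 10 libraries was sequenced by the authors as single reads of 50 bases. The authors trimmed reads with Trim Galore 0.5.0, removed abundant sequences with Bowtie2 2.3.4.1, aligned the rest to GRCm38 with STAR, and used featureCounts (Subread 1.6.2) for counting. Their deposited files hold raw read counts for 54532 genes, from which every other value was computed here. The strand setting and the counting of reads with several positions are not given in the sources used here.

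Biotypes, positions and sequences were from GENCODE M21, joined by Ensembl identifier (54495 of 54532). The members, the gene lists and the tests were chosen with earlier results of these data known. Parents were found with blastn 2.17.0, and windows were compared with all annotated transcripts. CPM were scaled by TMM (factors 0.982 to 1.02), apart from the membership, which used plain CPM. Counts were fitted with edgeR 4.0.16 in R 4.3.3 after filterByExpr (18573 genes), with 1 coefficient per group and no covariate, and Benjamini-Hochberg adjustment covered the whole table. The difference between the knockouts and that between the floxed lines were contrasts of a fit with 4 groups. The analysis was tested on simulated data.

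Named members were the 10 highest per kb and those with the 5 largest changes in each direction and knockout. Also named were up to 5 per knockout with its libraries beyond all controls, the 5 most like their parents and the 3 nearest the threshold. Other members, such as those that share a parent, have several exon blocks or a long frame, were named after their values were seen. So were *Gm13787*, *Gm42774*, *Gm16580* and *Gm15383*. The changes of *Gm4660*, *Gm8738* and *Gm13787*, also above all controls in *Morc2a*Δ/Δn, were not run under the alternatives. Alternatives were other scalings (RLE), filters, controls, membership and parent rules, a replicate block, DESeq2 1.42.0, limma-voom (limma 3.58.1) and each library left out. An alternative with only single-block members with a parent, the ribosomal sum without *Rps4l*, and membership without the libraries of the knockout compared were added after seeing the data. The study describes its replicates as biological. The labels do not tie each library to an animal, so p-values measure the spread between these libraries. No pair of replicates agreed within sampling noise (chi-square per degree of freedom 9.55 to 38.4 over 14 pairs). Some members and sequences are not reported here.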

Additional observations from a re-analysis of the deposited data

Results flagged for a closer look

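In 31 sets of control values (30 named members and their sum), 4 had a library far from the other 4 by Dixon's test at 95%. Chance flags about 1 in 20 sets that are chosen without regard to the controls. These 4 members were named for large changes against the same controls, so this rate does not hold for them. *Gm29844* was at 12.6 CPM in control 5 and between 3.51 and 6.13 CPM in the other controls. *Gm17971* was at 13.7 CPM in control 2 and between 2.67 and 5.14 CPM in the others. *Gm5628* was at 5.05 CPM in control 4 and between 3.02 and 3.51 CPM in the others. *Gm17076* was at 16.9 CPM in control 2 and between 5.50 and 6.93 CPM in the others.

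*Gm8407* drew attention because all *Mphosph8*Δ/Δn libraries lay below and both *Morc2a*Δ/Δn libraries above every control. The difference between the effects was -1.03 on the log2 scale (unadjusted p = 0.0121, adjusted p = 0.507, edgeR with a fit of 4 groups), so it did not pass the correction.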

How the results depend on the processing

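No member was called under any single library left out, in either knockout, between the knockouts or between the floxed lines. In *Mphosph8*Δ/Δn 1 member, *Rps4l*, was called over all genes with at least 1 count, over genes that reached 10 counts in every library, by DESeq2 and by limma-voom, and 0 under the other alternatives. Between the floxed lines, 1 member, *Gm15383*, was called over all genes with at least 1 count, and with a membership of 2 CPM or more 2 retrocopies below the threshold were (*Gm15920* and *Gm19427*). Calls among all genes in *Mphosph8*Δ/Δn were 10 with same-line controls, 87 with at least 1 count, 43 by DESeq2 and 6 to 21 with a library left out. In *Morc2a*Δ/Δn they were 98 with at least 1 count, 24 where each library had 10 counts or more, 6 with the compared groups alone, 46 with the replicate block, 51 by DESeq2 and 3 to 26 with a library left out. The difference between the knockouts gave 85 with at least 1 count and 0 to 7 with a library left out, and the floxed lines 154 and 11 to 44. With membership at 2 CPM, 10 CPM or outside other genes, the members numbered 164, 37 and 22, and parents at 95% identity over 80% of the copy numbered 13.

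The median log2 fold change of the members in *Mphosph8*Δ/Δn was -0.0252 with same-line controls, -0.029 with the replicate block and -0.00622 to 0.13 with a library left out. That of the members outside other genes was 0.21 in *Mphosph8*Δ/Δn, 0.0686 for the difference between the knockouts and 0.11 between the lines. In *Morc2a*Δ/Δn the median was 0.22 with same-line controls, -0.12 with the replicate block and -0.0556 to 0.15 with a library left out, lowest without *Morc2a*Δ/Δn replicate 1. That of the difference was -0.31 to -0.0237, and the log2 difference of the summed level in *Morc2a*Δ/Δn 0.0611 to 0.26, each nearest to 0 without *Morc2a*Δ/Δn replicate 1. The cause of these shifts was not tested. Of 413 values of 20 named members under alternatives, 404 kept direction and side of the threshold, though often not their size, 4 (*Rps4l*) passed it, and 5 turned. *Gm29844* was at 0.049 with same-line controls and at 0.0514 with the replicate block, *Gm47860* at 0.59 with same-line controls, *Gm13868* between -0.0731 and 1.05 and *Gm17971* between -0.71 and 0.0808 with a library left out.

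Replicate numbers were not taken to pair libraries, since deviations of same-numbered libraries correlated between -0.0275 and 0.0428 (7 pairs) and of others between -0.0552 and 0.0406 (24 pairs). With the replicate number as a block, no member was called, and all genes called in *Mphosph8*Δ/Δn were 12. Controls 4 and 5 carry no weight under this block, since no knockout library has their number. For the *Morc2a*Δ/Δn group of 2, a library left out leaves 1, which is assumed to vary like the others. The members were at low depth, with a median level of 10.8 CPM, and differences within the wide control spread of the lower ones could not be called.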

Other observations

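Below the threshold of 5 CPM, 405 other autosomal retrocopies passed the filter on low counts. None of them was called in *Mphosph8*Δ/Δn or in *Morc2a*Δ/Δn by edgeR, where 0.0969% and 0.0592% of all genes tested were, and none by limma-voom. DESeq2 called none of the 365 with an adjusted p in *Mphosph8*Δ/Δn and gave none of the 405 an adjusted p in *Morc2a*Δ/Δn. At an unadjusted p below 0.05 by edgeR were 20 (4.94%) and 6 (1.48%) of them, beside 5.67% and 10.7% of all genes. Those higher numbered 189 (46.7%) for the loss of *Mphosph8* and 174 (43.0%) for that of *Morc2a*, against 48.7% of all genes in each, and their median log2 fold changes were -0.04 and -0.16.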
